A study of Mus musculus with 3 samples.

Results

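The colony-stimulating factors and their receptors comprise 9 mouse genes, 4 for ligands and 5 for receptor chains. They were taken by gene symbol from the 55536 annotated genes, of which 22015 are protein-coding genes of the nuclear genome. The ligand genes are Csf1, which encodes macrophage colony-stimulating factor (M-CSF), Il34, whose product is the other ligand of the M-CSF receptor, Csf2, for granulocyte-macrophage colony-stimulating factor (GM-CSF), and Csf3, for granulocyte colony-stimulating factor (G-CSF). The receptor genes are Csf1r, Csf2ra, Csf2rb, Csf2rb2 and Csf3r. All 9 were listed in every deposited table. Of them, 7 averaged 1 TPM or more, as did 43.0% of all nuclear protein-coding genes. TPM is an abundance corrected for transcript length that sums to a fixed total in each table.

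M-CSF binds a receptor tyrosine kinase, the product of Csf1r, on which survival and growth of most macrophages depend. GM-CSF binds a specific alpha chain, encoded by Csf2ra, which pairs with the common beta chain encoded by Csf2rb and signals through JAK2 and STAT5. Mice carry another beta chain gene, Csf2rb2, whose product serves the receptor for interleukin-3. G-CSF acts on neutrophil precursors through a single-chain receptor encoded by Csf3r.

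RNA came from the cytosolic fraction of bone marrow-derived macrophages of C57BL/6J mice, which are primary cells grown out of marrow. The cells had received Lipid A, the part of bacterial lipopolysaccharide that Toll-like receptor 4 recognises, at 100 ng/ml for 40 min. Ribosomal RNA was depleted and total RNA was sequenced in 3 libraries, numbered as biological replicates 1, 2 and 3, each from 1 µg of RNA. The libraries have separate sample records and share 1 donor record, so p-values and SDs reflect how far the libraries differ, and part of that may be technical. Age and sex were not recorded, and the growth factor in which the cells were grown is not given in the sources used here. All 3 libraries form 1 group, and no value below shows an effect of Lipid A or of the fractionation.

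The libraries held 37861150, 37136495 and 58889061 expected counts in genes. Nuclear protein-coding genes took 32.8%, 36.2% and 23.5% of the TPM of all annotated genes in replicates 1, 2 and 3. The rest went to other RNA classes and to mitochondrial genes, so an equal part of the coding RNA reads as a lower TPM in replicate 3. The 7 macrophage markers, led by Lyz2 at 5974 ± 1620 TPM and Cd68 at 850 ± 221 TPM (SD, n = 3), were all above 1 TPM and summed to between 5401 and 9183 TPM per library. Of the 9 neutrophil markers, 3 reached 1 TPM, with S100a9 at 22.9 ± 2.84 TPM and S100a8 at 12.7 ± 3.71 TPM (SD, n = 3), while Ly6g had 0 counts. The neutrophil list summed to between 35.5 and 45.3 TPM. No mast cell, dendritic cell, lymphocyte, stromal or epithelial marker reached 1 TPM, 1 of 3 endothelial markers did (Kdr, 2.88 TPM), and 2 of 4 osteoclast markers did (Acp5, 2.17 TPM, and Ctsk, 1.30 TPM). The highest marker of the lists below 1 TPM was Kit at 0.51 TPM for mast cells, Ccr7 at 0.75 TPM for dendritic cells, Trbc2 at 0.0333 TPM for lymphocytes and Acta2 at 0.09 TPM for stroma, and all 3 epithelial markers had 0 counts. In RNA of whole cultures, a small number of cells of a type and little RNA per cell cannot be told apart.

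Among the ligands, Csf1 was the highest. It measured 23.3, 29.0 and 11.9 TPM in replicates 1, 2 and 3, from 3822, 4794 and 4176 expected counts. The mean was 21.4 ± 8.70 TPM (SD, n = 3), above 80.2% of the 11445 protein-coding genes with a mean of at least 0.1 TPM. Replicate 3 was the lowest, and Csf1 stood above 73.0% of the detected coding genes of that library, against 81.0% in replicate 1 and 83.2% in replicate 2. Csf1 (ENSMUSG00000014599.10) lies on the minus strand of chromosome 3, at chr3:107741048-107760469 of mm10, and has 7 annotated transcripts.

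Transcripts of Csf1 divide at exon 6. In the annotation, Csf1-201 uses 1016 bases of that exon and has a coding length of 1659 bases, while Csf1-202 uses 131 bases of it and has a coding length of 774 bases. The longer form is known to give a secreted glycoprotein or proteoglycan, and the shorter one a growth factor that stays at the cell surface. The 60 coding bases around the junction are shown because they are where the forms part, with the bases from exon 6 in capitals, from GENCODE M21.
Csf1-201: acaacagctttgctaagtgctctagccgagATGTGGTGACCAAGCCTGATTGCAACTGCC
Csf1-202: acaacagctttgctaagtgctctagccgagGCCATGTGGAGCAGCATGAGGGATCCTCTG

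Both lines begin with the same 30 bases of the exons before. Csf1-201 held 56.8%, 57.5% and 61.2% of Csf1 TPM in replicates 1, 2 and 3 of the first transcript table. Csf1-202 held 17.9%, 28.2% and 17.5%. Csf1-201 was thus more abundant than Csf1-202 in each library, with 58.5 ± 2.36% against 21.2 ± 6.10% (SD, n = 3). In the second transcript table Csf1-201 had 58.6 ± 7.24% and Csf1-202 had 7.89 ± 3.86% (SD, n = 3), so the short form's share depended on the quantification. Csf1-203, with the same coding sequence as Csf1-201 and another 3′ exon, held 5.94 ± 1.99%, and the retained-intron transcript of Csf1 held 1.36 ± 1.18% (SD, n = 3 each, first table). Csf1-205, a model of 773 bases without an annotated stop codon, ends before exon 6 and cannot be assigned to either form. It held 11.7 ± 3.83% in the first table and 17.1 ± 2.98% in the second (SD, n = 3 each).

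Il34 had 0 counts in all 3 libraries of the gene table. With 3 counts as the limit that a count of 0 allows, its level was at most 0.0704, 0.0754 and 0.0348 TPM in replicates 1, 2 and 3. By that limit, Csf1 was at least 330.5-fold, 385-fold and 342-fold higher than Il34 in these libraries. The deposited TPM intervals of Il34 reached further up, to 0.715, 0.825 and 0.364 TPM in replicates 1, 2 and 3. By these intervals Csf1 was still the higher, but by smaller factors. The second transcript table gave Il34 a single estimated count, in replicate 3, on the noncoding transcript Il34-205. Il34 (ENSMUSG00000031750.15) spans chr8:110741829-110805924 on the minus strand, and 2 antisense genes that overlap it, Gm15894 and Gm15895, also had 0 counts. Il34 was not detectable at this depth.

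Csf2 was low. It measured 2.44, 3.07 and 1.51 TPM, from 77, 90 and 96 expected counts, with a mean of 2.34 ± 0.785 TPM (SD, n = 3). This level was above 28.7% of the detected coding genes, whose median was 6.15 TPM. Csf1 exceeded Csf2 by 9.53-fold, 9.45-fold and 7.89-fold in TPM in replicates 1, 2 and 3. Csf2 (ENSMUSG00000018916.5) lies at chr11:54247271-54249667 on the minus strand and has 1 annotated transcript. Its overlapping antisense gene Gm12223 had 0 counts.

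Csf3 was at the limit of detection. It had 2, 7 and 8 expected counts, for 0.03, 0.11 and 0.06 TPM. The exact Poisson 95% intervals of these counts were 0.242 to 7.22, 2.81 to 14.4 and 3.45 to 15.8, which cover counting error only. The counts were not scaled to depth, and Csf3 was not tested for differences between libraries. Csf3 (ENSMUSG00000038067.2) lies at chr11:98701263-98703629 on the plus strand. Csf2 was higher than Csf3 in every library.

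Messages of Csf2 and Csf3 carry AU-rich elements in the 3′ untranslated region, which are known to speed mRNA decay. The 30 bases with the most ATTTA pentamers are shown for the 3 ligands with any counts in the gene table, with pentamers in capitals (GENCODE M21, DNA letters), so that the elements can be compared.
Csf1-201: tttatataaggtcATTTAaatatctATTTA
Csf2-201: tttttaaatATTTATTTATTTATTTATTTA
Csf3-201: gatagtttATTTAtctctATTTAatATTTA

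These stretches hold 2 pentamers in Csf1, 5 in Csf2 and 3 in Csf3. Over the whole 3′ untranslated region, Csf2 had 9 pentamers in 317 bases, Csf3 had 6 in 669 bases and Csf1 had 4 in 2111 bases. The stricter nonamer TTATTTATT occurred 4 times in Csf2 and in no other member. Of 21033 genes with a 3′ untranslated region, 7.6% hold the nonamer. Among receptors, Csf1r had 3 pentamers in the 1669 bases of Csf1r-202, and Csf2ra, Csf2rb, Csf2rb2 and Csf3r had 0. For each gene only the longest transcript with an annotated stop codon was searched, so other 3′ ends may differ. A match describes the letters only, and decay was not measured in these libraries.

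**Figure D1:**
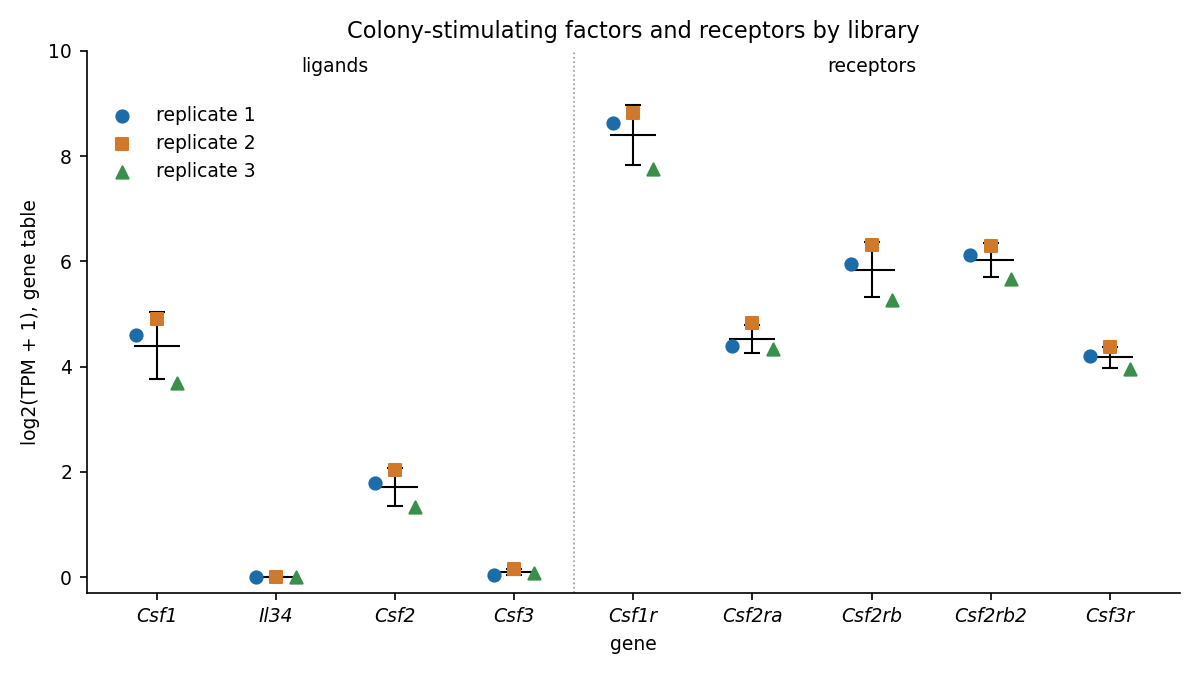
Level of each gene as log2(TPM + 1) of the gene table, with ligands left and receptors right of the dotted line; points are replicates 1, 2 and 3, and the black bars give the mean and SD on this scale (n = 3). Csf1r is the highest at a mean of 353 TPM, Csf1 is the highest ligand at 21.4 TPM, and Il34 is at 0 in each library.

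Csf1r was the highest of the 9 genes. It measured 392, 452 and 214 TPM in replicates 1, 2 and 3, with a mean of 353 ± 124 TPM (SD, n = 3). This placed it at rank 108 of 11445 detected coding genes, above 99.1% of them. Its rank within a library was 104, 97 and 139. The gene (ENSMUSG00000024621.16) lies at chr18:61100598-61132149 on the plus strand, and its 3′ end overlaps Hmgxb3, a gene of the opposite strand with a mean of 4.57 TPM.

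The order of the libraries for Csf1r differed between TPM and counts. Replicate 2 was the highest in TPM, whereas the expected counts scaled only to library size (CPM) were 2236, 1479 and 1472 in replicates 1, 2 and 3, so replicate 1 was the highest there. The deposited effective length of the gene, by which counts are divided to reach TPM, was 3945, 2345 and 3644 bases. Divided by the fixed length of its longest coding transcript, 4701 bases, the counts gave 476, 315 and 313 CPM per kilobase. That scale was added after seeing the data.

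**Figure D2:**
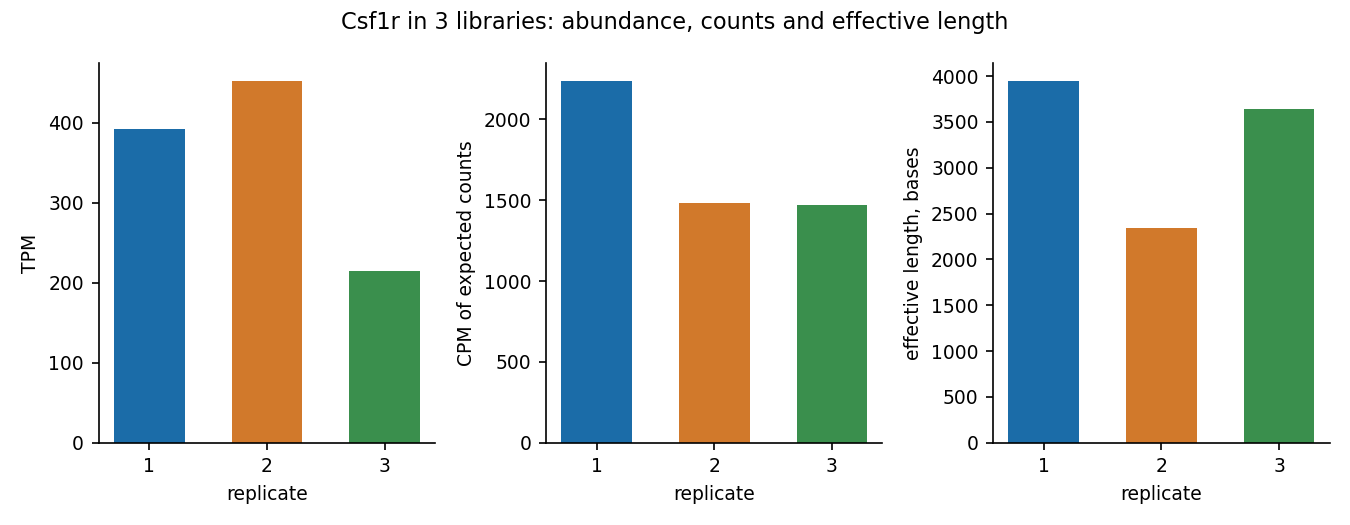
Csf1r in replicates 1, 2 and 3 as TPM (left), CPM of expected counts (middle) and effective length in bases (right), 1 bar per library. Replicate 2 has the highest TPM, at 452, and the shortest effective length, at 2345 bases, while replicate 1 has the highest CPM, at 2236.

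A short annotated transcript moved with this length. Csf1r-205 is 416 bases long, has 3 exons at the 5′ end of the gene and no annotated stop codon, and measured 0.79, 208 and 32.6 TPM in replicates 1, 2 and 3 of the first transcript table. It took 46.0% of Csf1r TPM in replicate 2 but 3.60% of the Csf1r counts there. In the second table it measured 20.8, 119 and 30.2 TPM and was again highest in replicate 2. The full-length transcripts, Csf1r-201 and Csf1r-202, share an identical coding sequence of 2934 bases and differ in their untranslated regions, Csf1r-202 reaching 1015 bases further at the 3′ end. Of these added bases, 873 overlap Hmgxb3.

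The 2 tables divided the full-length transcripts differently. Csf1r-201 measured 247, 81.4 and 44.9 TPM in replicates 1, 2 and 3 of the first table, and Csf1r-202 measured 145, 163 and 136 TPM. In the second table Csf1r-201 measured 171, 109 and 53.3 TPM, and Csf1r-202 measured 12.6, 16.3 and 4.82 TPM. Csf1r-202 took 62.8 ± 18.8% of the Csf1r counts in the first table and 10.9 ± 3.43% in the second (SD, n = 3 each). Which 3′ end prevailed could not be settled from these tables. Transcripts annotated as coding together held over 99% of Csf1r TPM in both: 99.9 ± 0.0339% in the first and 99.8 ± 0.104% in the second (SD, n = 3 each). They include the short Csf1r-205, which lacks a stop codon. It alone held 20.5 ± 23.4% in the first table and 30.95 ± 19.4% in the second (SD, n = 3 each).

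**Figure D3:**
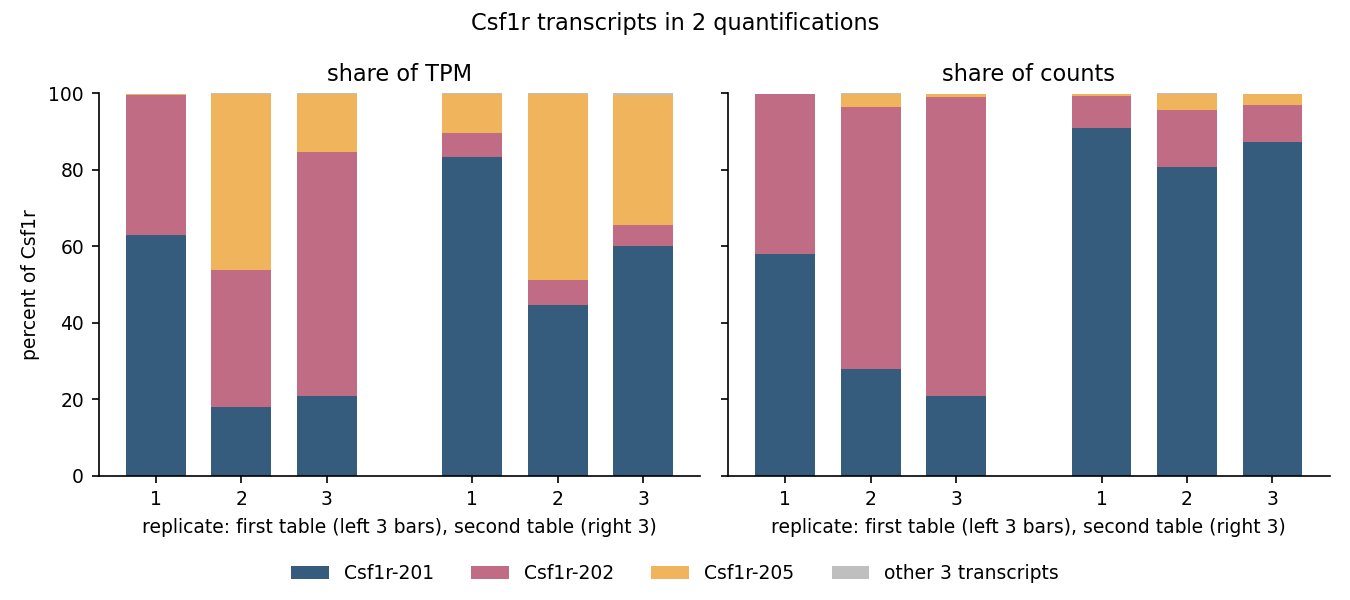
Share of Csf1r TPM (left) and of Csf1r counts (right) in each transcript, in percent; each bar is 1 replicate, with 3 bars of the first transcript table followed by 3 of the second. Csf1r-205 takes 46.0% of TPM in replicate 2 of the first table but 3.60% of its counts, and Csf1r-202 is larger in the first table than in the second in every library.

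Csf1r exceeded its ligand gene Csf1 by a similar factor in each library. The TPM ratios were 16.9, 15.6 and 18.0, and the difference of log2(TPM + 1) was 3.999 ± 0.073 (SD, n = 3). Differences on this scale understate those of genes with low values. With 3 libraries, the exact two-sided sign-flip permutation test cannot go below p = 0.25, which it gave here, so no call was made for this pair or for any other. On the fixed-length scale the difference was 3.89 ± 0.51 (SD, n = 3), so the narrow spread seen in TPM did not carry over to counts. As a likeness of level alone, the coding genes nearest to Csf1r over the 3 libraries were Lgals3bp and Rps18, with largest differences of 0.13 and 0.14 in log2(TPM + 1). Those nearest to Csf1 were Dynlt1f and Hbp1, with largest differences of 0.08 and 0.10.

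The alpha chain gene of the GM-CSF receptor, Csf2ra, was lower than either beta chain gene. It measured 20.1, 27.6 and 19.2 TPM, from 1422, 1592 and 2719 expected counts, with a mean of 22.3 ± 4.59 TPM (SD, n = 3), above 81.1% of detected coding genes. The gene (ENSMUSG00000059326.7) lies at chr19:61223957-61228429 on the minus strand. Part of its abundance was assigned to retained-intron transcripts, which keep an intron and are annotated as noncoding. These took 17.1%, 41.4% and 20.0% of Csf2ra TPM in replicates 1, 2 and 3 of the first transcript table. They took 8.30%, 16.2% and 11.6% of the Csf2ra counts there, a smaller share in each library. Replicate 2 stood above the others on both measures.

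The mean retained-intron share of Csf2ra TPM was 26.2 ± 13.3% (SD, n = 3) in the first table and 24.0 ± 14.2% in the second. Of the counts, it was 12.0 ± 3.95% in the first table and 11.95 ± 3.67% in the second (SD, n = 3 each). The first share of TPM was higher than that of 93.7% of the 5946 coding genes of at least 1 TPM that have such a transcript, whose median was 1.46%, and that of the second table was higher than 92.6%. In the first table Csf2ra-205, a model of 632 bases, measured 2.48, 11.2 and 2.31 TPM and held 12.4%, 40.4% and 12.0% of Csf2ra TPM. In the second table it held 6.92%, 38.7% and 6.76%, so it made up nearly all of the retained-intron share in replicate 2 and less of it in the other libraries. Among the other members, the retained-intron share was 1.36% for Csf1, 1.45% for Csf2rb and 0.0453% for Csf1r in the first table. The coding transcript Csf2ra-201 measured 14.5, 15.95 and 12.8 TPM, a narrower range than that of the gene's sum.

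The beta chain genes were next below Csf1r. Csf2rb, for the common beta chain, measured 60.5, 77.9 and 37.7 TPM, with a mean of 58.7 ± 20.2 TPM (SD, n = 3), above 93.2% of detected coding genes. Csf2rb2, for the beta chain of the interleukin-3 receptor, measured 68.9, 77.1 and 49.98 TPM, with a mean of 65.3 ± 13.9 TPM (SD, n = 3), above 93.8%. Together with Csf1r, they were the 3 members in the highest 10% of detected coding genes, which began at 41.7 TPM. The genes are neighbours in opposite orientation, Csf2rb (ENSMUSG00000071713.6) at chr15:78325752-78353847 on the plus strand and Csf2rb2 (ENSMUSG00000071714.7) at chr15:78282507-78305721 on the minus strand.

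Their coding sequences are near copies. Aligned over the main transcripts, Csf2rb-201 of 2691 coding bases and Csf2rb2-201 of 2637, they were identical at 92.9% of positions, with 122 substitutions and 70 gap positions. The 90 coding bases in which they differ most hold 16 differences and are shown because reads here can be told apart, with differing bases in capitals (GENCODE M21). They start at coding base 308 of Csf2rb-201 and 311 of Csf2rb2-201.
Csf2rb-201: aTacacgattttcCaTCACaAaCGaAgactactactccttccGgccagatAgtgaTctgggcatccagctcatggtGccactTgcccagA
Csf2rb2-201: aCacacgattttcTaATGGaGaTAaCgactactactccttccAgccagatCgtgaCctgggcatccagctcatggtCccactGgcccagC

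The longest identical run has 242 bases, from coding base 2083 to 2324 of Csf2rb-201. A read that lies inside it fits either gene, and it is shown for that reason.
Csf2rb-201 and Csf2rb2-201: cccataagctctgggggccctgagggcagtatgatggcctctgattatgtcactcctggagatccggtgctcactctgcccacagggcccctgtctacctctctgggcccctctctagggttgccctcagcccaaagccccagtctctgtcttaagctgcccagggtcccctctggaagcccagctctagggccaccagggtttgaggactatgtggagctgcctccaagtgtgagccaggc

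Of all 100-base windows of Csf2rb-201, 7.2% also occurred in Csf2rb2-201. The deposited posterior SD of the count, the quantifier's own error of dividing shared reads, was 13.1, 12.6 and 15.8 reads for either gene, against 14895, 14145 and 18532 expected counts of Csf2rb. This was between 0.0853% and 0.0888% of the Csf2rb count. Csf2rb held 47.0%, 45.9% and 43.1% of the counts of both genes in replicates 1, 2 and 3 of the gene table, and 47.3%, 46.5% and 43.6% in the second transcript table. The counts thus divided in nearly the same way in both quantifications.

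The order of Csf2rb and Csf2rb2 was not settled by TPM. Csf2rb minus Csf2rb2 was -0.19 ± 0.21 in log2(TPM + 1) (SD, n = 3), with Csf2rb higher in 1 of 3 libraries, and the exact two-sided sign-flip permutation test gave p = 0.5. In the second transcript table the sign turned, to 0.12 ± 0.23. On the fixed-length scale Csf2rb was lower in all 3 libraries, at -0.31 ± 0.12 (SD, n = 3). The transcript Csf2rb-202, a model of 397 bases, measured 0, 17.9 and 0 TPM in replicates 1, 2 and 3 of the first table and 2.83, 18.0 and 0.71 TPM in the second. The main transcript Csf2rb-201, at 59.3, 59.3 and 36.1 TPM, was below Csf2rb2-201, at 66.4, 67.0 and 47.8 TPM, in each library of the first table.

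**Figure D4:**
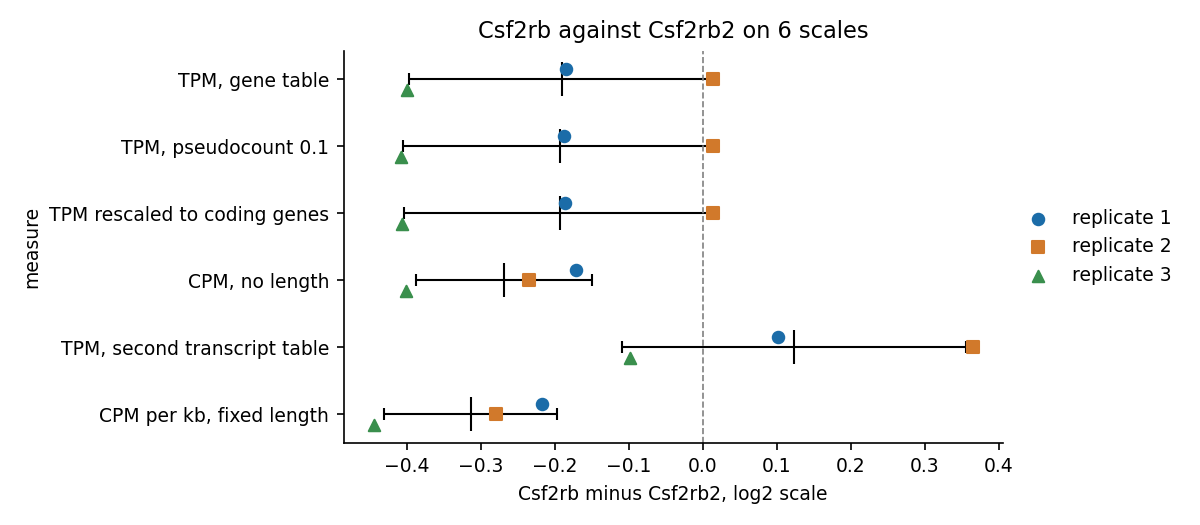
Csf2rb minus Csf2rb2 on the log2 scale, on 6 scales from top to bottom; points are replicates 1, 2 and 3, and the black bars give the mean and SD (n = 3). The mean is -0.19 for TPM of the gene table and 0.12 for the second transcript table, and with a fixed length or no length all 3 libraries lie below 0.

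Beta chain genes stood above the alpha chain gene. Csf2rb exceeded Csf2ra by 3.02-fold, 2.82-fold and 1.96-fold in TPM, a difference of 1.32 ± 0.33 in log2(TPM + 1) (SD, n = 3). Summed, Csf2rb and Csf2rb2 reached 129, 155 and 87.6 TPM. That sum was 6.45, 5.62 and 4.56 times the level of Csf2ra. Csf1r in turn exceeded Csf2rb by 6.48-fold, 5.81-fold and 5.69-fold, a difference of 2.56 ± 0.10 (SD, n = 3).

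Csf3r, for the G-CSF receptor, measured 17.4, 19.6 and 14.5 TPM, from 2719, 2986 and 4126 expected counts. Its mean was 17.2 ± 2.57 TPM (SD, n = 3), above 75.7% of detected coding genes, while its ligand gene Csf3 was at the limit of detection. Neutrophils are the cells best known for this receptor. Their markers ran from S100a9 at 22.9 TPM, above Csf3r, and S100a8 at 12.7 TPM down to Ly6g at 0 counts. Ngp was at 2.80 TPM, and Mpo, at 0.217 TPM, was the median of the list. The part of neutrophils in the Csf3r level was not tested. Csf1r exceeded Csf3r by 22.6-fold, 23.1-fold and 14.8-fold, a difference of 4.23 ± 0.37 in log2(TPM + 1) (SD, n = 3).

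Csf3r (ENSMUSG00000028859.14) lies at chr4:126024550-126044440 on the plus strand. Csf3r-201 and Csf3r-202 have an identical coding sequence of 2514 bases and differ in their first exons. Csf3r-201 held 75.2%, 56.5% and 68.1% of Csf3r TPM and Csf3r-202 held 19.1%, 39.1% and 14.0% in the first table. In the second table their means were 41.7 ± 13.8% and 39.8 ± 7.34% (SD, n = 3 each). There Csf3r-202 was the larger in replicate 2, at 48.1% against 25.9%, and Csf3r-201 in the other libraries. Noncoding transcripts of Csf3r held 9.34 ± 7.44% of its TPM in the first table and 18.6 ± 6.49% in the second (SD, n = 3 each). Of these, Csf3r-204 held 25.97% in replicate 2 of the second table, and Csf3r-203 held 13.75% in replicate 3 of the first.

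Ordered by mean TPM, the genes ran Csf1r, Csf2rb2, Csf2rb, Csf2ra, Csf1, Csf3r, Csf2, Csf3 and Il34. The ranges over libraries overlapped between Csf2rb2 and Csf2rb, between Csf2ra and Csf1, and between Csf1 and Csf3r. All other neighbours in this order had ranges that did not overlap, although Csf3 in replicate 1 and Il34 in every library were under the limit of 3 counts and cannot be ordered there. For all 22015 coding genes, the mean reached 0.1 TPM in 52.0% and 1 TPM in 43.0%.

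The second transcript table gave lower TPM for coding genes as a whole, with nuclear coding genes at 15.3%, 18% and 7.03% of its sum. The median log2 ratio of the second table over the gene table, over coding genes of at least 1 TPM, was -1.10, -1.03 and -1.73 in replicates 1, 2 and 3. Csf1, Csf2, Csf2ra, Csf2rb, Csf2rb2 and Csf3r lay between the 5th and the 95th percentile of such genes in all 3 libraries. Csf1r did so in replicates 1 and 2, and in replicate 3 it lay 0.46 above the median and outside that range. Csf3, with few counts, lay outside in replicates 1 and 2. By the second table, the mean levels were 179 TPM for Csf1r, 31.9 for Csf2rb, 27.7 for Csf2rb2, 9.94 for Csf1, 9.49 for Csf2ra, 8.37 for Csf3r and 1.07 for Csf2.

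With counts scaled to library size and normalised by TMM in edgeR, 4 of the 7 members tested for spread varied more between libraries than the median gene. The other 3 varied less. A goodness-of-fit test in edgeR, which asks whether a gene varies more between libraries than genes of its abundance do, called 191 of 12250 genes at an adjusted p under 0.05, or 1.56%. Of the 9 members, 7 passed the filter on low counts, and 0 of these were called. At an unadjusted p under 0.05 there was 1 member, Csf1, beside 764 of all 12250 genes, or 6.24%. Without replicate 3 no tested member, Csf1 included, was under 0.05. With the DESeq2 size factors and dispersion trend there were 2 members at an unadjusted p under 0.05 and again 0 called. Csf1r was 1 of these 2, although it was not under 0.05 in the edgeR test above, so its excess spread depended on the setting. Of all 12250 genes, 208, or 1.7%, were called with these DESeq2 settings. Il34 and Csf3 were not tested.

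Csf1 varied the most of the 7, with normalised log2 CPM of 6.65, 6.96 and 6.21 in replicates 1, 2 and 3. It had an SD of 0.38 and an adjusted p of 0.390 in the edgeR goodness-of-fit test. Csf1r had 11.12, 10.48 and 10.58, with replicate 1 highest, an SD of 0.34 and an adjusted p of 1. Csf2rb2 was nearly level after this normalisation, at 8.79, 8.76 and 8.76. Its SD of 0.016 was below that of all but 1.01% of the genes tested, whose median SD was 0.16. Scaled to library size alone, Csf2rb2 had 443, 448 and 416 CPM in replicates 1, 2 and 3. Csf3r had an SD of 0.062, Csf2rb of 0.13, Csf2ra of 0.18 and Csf2 of 0.23. With TPM rescaled to the same sum over coding genes in each library, Csf2rb2 measured 210, 213 and 212 TPM.

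**Figure D5:**
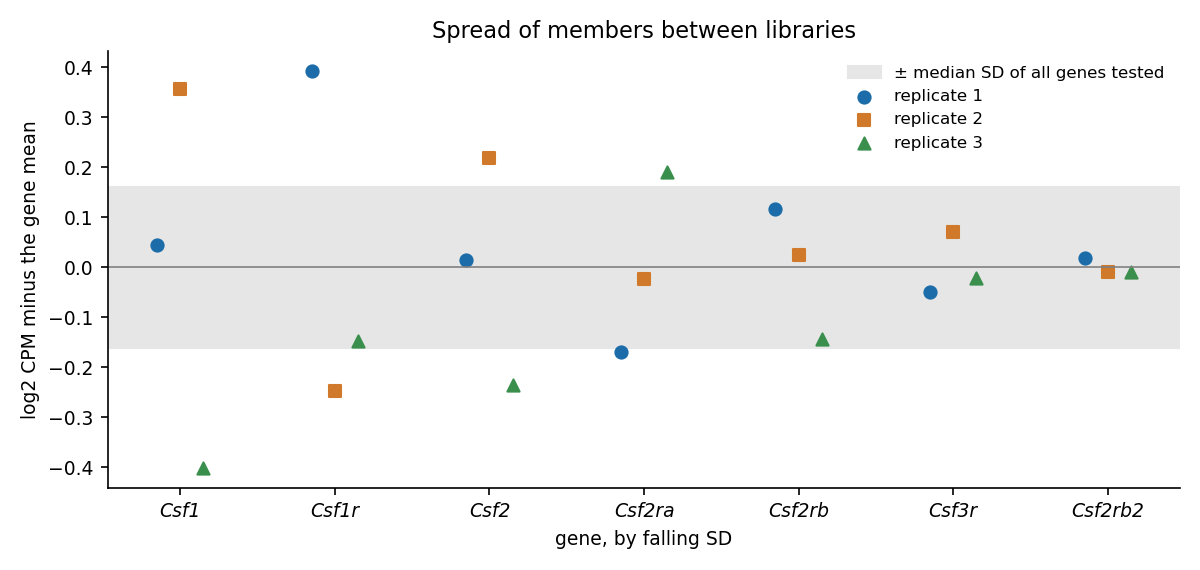
Normalised log2 CPM of each tested gene minus its own mean over replicates 1, 2 and 3, genes ordered by SD; the grey band spans plus and minus the median SD of all genes tested, 0.16. Csf1 and Csf1r lie furthest apart, with SDs of 0.38 and 0.34, and Csf2rb2 lies closest to 0, with an SD of 0.016.

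Most listed genes that act below the M-CSF receptor were present. Of 16 genes of Csf1r signalling, 15 had at least 1 TPM, with a median of 31.0 TPM. Of all coding genes, 43.0% had at least 1 TPM, and the median of the detected ones was 6.15 TPM. The list was chosen with earlier results of these data known. The highest were Tyrobp, an adaptor with an activation motif, at 980 ± 196 TPM, Grb2, an adaptor that leads to RAS, at 163 ± 75.1 TPM, and Syk, a tyrosine kinase that binds Tyrobp, at 82.9 ± 9.53 TPM (SD, n = 3 each). All 8 transcription factors known to bind the Csf1r gene or act in its lineage were above 1 TPM, with a median of 37.7 TPM. They were led by Spi1, which encodes PU.1, at 85.1 ± 26.4 TPM, Irf8 at 63.1 ± 12.4 TPM and Cebpb at 48.6 ± 15.1 TPM (SD, n = 3 each).

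Of 10 genes of the JAK and STAT route that GM-CSF and G-CSF use, 8 had at least 1 TPM, beside 43.0% of all coding genes. The median of the list was 9.00 TPM. Socs3, a feedback inhibitor of the G-CSF receptor among others, was the highest, at 190, 188 and 89.8 TPM in replicates 1, 2 and 3. Jak1 followed with 40.5 ± 6.45 TPM and Stat3 with 21.03 ± 4.40 TPM (SD, n = 3 each). The genes of JAK2 and STAT5 were lower, with Jak2 at 8.30 ± 1.72, Stat5b at 9.70 ± 2.10 and Stat5a at 4.91 ± 1.30 TPM (SD, n = 3 each). Il3ra, the alpha chain that joins the beta chains in the interleukin-3 receptor, measured 16.5, 24.1 and 11.2 TPM. Il3 and Il5ra had 0 counts in every library and Il5 had 1 count in all, so of these 4 genes only Il3ra was above 1 TPM.

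Among 8 genes for the other class III receptor kinases, the family of Csf1r, and their ligands, 4 had at least 1 TPM. This is near the 43.0% of all coding genes that did so. The median of the list was 1.41 TPM. The highest were ligand genes, with Pdgfb at 7.92 ± 0.161, Kitl at 3.26 ± 0.738 and Pdgfa at 2.93 ± 0.390 TPM (SD, n = 3 each). The receptor genes were low, with means of 0.51 TPM for Kit, 0.10 TPM for Flt3 and 0.00667 TPM for both Pdgfra and Pdgfrb. Adam17, a protease able to shed M-CSF and its receptor from the cell surface, measured 37.7, 28.1 and 23.9 TPM. Of the other proteins reported to bind interleukin-34, Sdc1 was at 0.547 ± 0.222 TPM (SD, n = 3) and Ptprz1 had 0 counts.

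Promoter windows of 300 bases, 250 before and 50 after the start site, were at hand for 5 members in RefSeq (GRCm38.p6), namely Csf1, Csf2, Csf2ra, Csf2rb2 and Csf3r. Both strands were searched. The Csf1 window held an NF-κB match, as did 4.5% of all 32851 windows. The Csf2rb2 window held the PU.1 letters GAGGAAGT, found in 3.2% of windows, and 2 matches to the C/EBP letters TTNNGNAAN, 1 of which overlapped the PU.1 match. The C/EBP letters also occurred once in Csf2 and once in Csf2ra, and 40.6% of windows hold them. The AP-1 letters TGANTCA, in 7.8% of windows, and TATAAA, in 13.6%, were in no member's window. The RefSeq start of Csf2 lies 232 bases from the 5′ end of its GENCODE model and that of Csf3r 109 bases, so those windows do not sit at the annotated ends used for counting.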

How the data were processed

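For every library there were 3 deposited tables, 1 of genes and 2 of transcripts, made on mm10 with GENCODE M21, per the files' notes. The authors deposited expected counts and TPM in the gene table and first transcript table, made from a transcriptome alignment, and estimated counts and TPM in the second, made from the reads. The gene table also held deposited posterior SDs of counts, effective lengths and TPM intervals. The sources used here give neither tools nor strand use, so overlapping and near-identical genes are uncertain.

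The members and lists were chosen with earlier results of these data known. Named genes were all members, the 3 highest of each pathway list with any under 0.1 TPM, up to 2 of the highest of each marker list, and the 2 coding genes nearest in level to Csf1r and to the highest ligand. Other genes were named after their values were seen. Levels are deposited TPM. CPM used the sum of expected counts in genes, and features that name no gene were left out. Pairs were compared as log2(TPM + 1) with a pseudocount of 1 by exact sign-flip tests. Spread was tested with edgeR 4.0.16 in R 4.3.3 on expected counts rounded to whole numbers (filterByExpr, TMM, trended dispersion, goodness of fit, Benjamini-Hochberg over all genes at 0.05), after a check on simulated data. DESeq2 1.42.0 gave alternatives. A count of 0 allowed 0.0792, 0.0808 and 0.0509 CPM in replicates 1, 2 and 3, with 3 counts as the limit, for counting error only. Coding identity was computed from GENCODE transcripts with Biopython 1.88 in place of protein identity.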

Additional observations from a re-analysis of the deposited data

How the results depend on the processing

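No comparison between groups, paired or not, was possible because all libraries form 1 group. Pairs of genes were compared within each library. Of 140 values that answer a comparison and were recomputed, 117 stayed within 1 SD (counts within 1.5 times), 22 moved further and 1 turned its sign. Leaving out 1 of 3 libraries cannot move a mean by more than 1 SD. For pairs and transcript shares, the values without 1 library were therefore bound to stay within it. They are among the 117 and do not show stability. Csf1 over Il34, at 4.40 on the log2 scale, became 7.65 with a pseudocount of 0.1, 6.07 with TPM rescaled to coding genes, 6.62 in CPM and 3.32 in the second table. Csf1r over Csf1 was 4.11 in CPM and 3.89 with a fixed length, a scale chosen after seeing the data. Csf1r over Csf2rb was 2.23 in CPM and 2.27 with a fixed length, and Csf2rb over Csf2ra was 3.07 and 1.65. Csf2rb over Csf2rb2 was 0.12 in the second table. There the short Csf2rb-202 took 16.8% of the gene rather than 7.65%, and the short Csf2rb-203 took 5.40% rather than 0%. The part of any transcript in the change of sign was not tested. Second-table shares were 62.7% for Csf1r-201, 6.09% for Csf1r-202, 7.89% for Csf1-202, 41.7% for Csf3r-201, 39.8% for Csf3r-202, 70.3% for Csf2rb-201 and 86.6% for Csf2rb2-201. Genes called in the spread test numbered 191, or 1.56% of those tested, and 103, or 0.921%, with coding genes alone. When replicates 1, 2 and 3 were left out in turn, they numbered 99, 110 and 64, or 0.782%, 0.847% and 0.519%. Few genes of any kind were called in each of these, and 0 of the 7 members tested. With rescaled TPM, 2 rather than 1 of Adam17, Sdc1 and Ptprz1 reached 1 TPM. Except where stated, the cause was not tested. Depth limits Csf2 and Csf3, with under 100 counts in each library.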
